A study of Mus musculus with 16 samples.

Results

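The 34 genes described here encode the cargo, membrane proteins and release machinery of the neuroendocrine secretory granule, together with 3 general neuroendocrine markers. They were taken by symbol from the 23224 genes of a count table of mouse pancreatic neuroendocrine tumours, and all 34 were in the table and among the 16084 genes expressed well enough to be tested. Chromogranins and secretogranins load the granule. SNARE proteins pull granule and plasma membrane together, and several synaptotagmins bind the calcium that triggers fusion. Priming factors, complexins and Rab proteins decide how many granules stand ready. Beta cells release insulin by this route, and pathologists stain for chromogranin A, synaptophysin and INSM1 to recognise tumours of this lineage.

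Every tumour came from a RIP1Tag2 mouse, which carries the SV40 T antigens under the rat insulin promoter, so that beta cells become tumours in controls and treated mice alike. The mice were 14 to 16 weeks old, described as end stage. The B6 control group (7 libraries) came from C57Bl/6 (B6) mice that were untreated or received normal saline for 3 days; the labels do not say which library is which. The C3H control group (4 libraries) came from C3HeB/Fe (C3H) mice without the drug. The MK801 group (5 libraries) came from B6 mice injected intraperitoneally once daily for 3 days with MK801, an NMDA receptor antagonist, at 1 mg/kg. Whether the libraries of a group came from different mice is not stated, so the p-values reflect the spread between libraries, which may be technical. The level of a gene is its CPM, the count per 1e+06 of a TMM-scaled library, and depth was 38561334 to 57013815 estimated counts. The 34 genes took 1.67% to 3.32% of each library's counts.

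Insulin transcripts, the defining product of the labelled tumour type, made up 1.23% to 8.85% of counts. The lowest share was that of B6 control replicate 1, which stood apart in several genes below: its Pdx1 level, a transcription factor of beta cells, was 7.84 CPM against 28.5 to 139 in the other libraries. Its level of Cartpt, a neuropeptide precursor, was 5576 CPM against 0.112 to 22.1 in the others, and that of the neurofilament gene Nefl was 57.02 CPM against at most 4.52. The nerve and ganglion markers did not move together there: Nefm, another neurofilament gene, was the highest of the 16 libraries at 133 CPM, Th, the tyrosine hydroxylase gene, was the lowest at 13.8 CPM, and Tubb3, a neuronal tubulin gene, was inside the range of the others at 128 CPM. The 11 markers summed to 343 CPM in this library and to 104 to 436 CPM in the others. The 8 Schwann cell markers summed to 17.1 CPM, against 7.12 to 21.0 CPM. The summed acinar marker genes, from admixed exocrine tissue, ran from 26.5 to 31027 CPM without following the groups. In bulk tumour RNA, fewer cells of a type and less RNA per cell cannot be told apart.

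Chga, Chgb and Scg2 were among the most abundant of the 34 genes per length of transcript, and the 150 bases before their start sites are shown because each holds a cyclic AMP response element or a variant of it, in capitals. Pcsk1n is shown because it varied most between libraries, with the GC box nearest its start in capitals. The sequences are RefSeq promoters on GRCm38.p6, at chr12:102554791-102554940 (plus strand) for Chga, chr2:132781492-132781641 (plus strand) for Chgb, chr1:79440027-79440176 (minus strand) for Scg2 and chrX:7919672-7919821 (plus strand) for Pcsk1n.
Chga: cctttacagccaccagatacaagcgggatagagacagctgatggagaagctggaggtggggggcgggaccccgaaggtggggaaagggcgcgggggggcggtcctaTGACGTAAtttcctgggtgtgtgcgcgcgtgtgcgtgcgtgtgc
Chgb: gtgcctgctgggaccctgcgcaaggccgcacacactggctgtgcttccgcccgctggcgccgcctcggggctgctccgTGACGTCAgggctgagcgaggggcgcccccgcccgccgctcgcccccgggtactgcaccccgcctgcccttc
Scg2: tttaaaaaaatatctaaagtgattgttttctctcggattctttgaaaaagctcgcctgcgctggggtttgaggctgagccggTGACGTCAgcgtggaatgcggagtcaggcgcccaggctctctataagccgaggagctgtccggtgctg
Pcsk1n: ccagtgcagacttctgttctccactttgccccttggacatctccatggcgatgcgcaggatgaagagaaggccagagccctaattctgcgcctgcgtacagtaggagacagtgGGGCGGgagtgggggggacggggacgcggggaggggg

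RefSeq promoters, from 250 bases before to 50 after the start, were matched for 25 of the 34 genes, and the first listed window per gene was searched on both strands. TGACGTCA, the palindromic response element, was in 2 of the 25 (8%), Chgb and Scg2, against 1.88% of 27025 promoters. The variant TGACGTAA was in Chga alone among them, against 0.533% of all promoters. The GC box GGGCGG was in 17 of 25 (68%) against 35.9%, and TATAAA in 3 of 25 (12%) against 14.2%. TTCAGCACC, the left part of the RE1 element recognised by the repressor REST, was in 3 of 25, Ptprn2, Scg2 and Unc13a (12%), against 0.359% of promoters. All 3 hold it near the start as its reverse complement GGTGCTGAA, in capitals in the 29-base sites below. These lie at chr12:116485723-116485751 (plus strand) for Ptprn2, chr1:79440015-79440043 (minus strand) for Scg2 and chr8:71671717-71671745 (minus strand) for Unc13a. No match of one motif overlaps a match of another in the sequences printed. The letters describe the windows and show neither binding nor a cause of any level. Rest itself was at 0.329 to 3.95 CPM. No promoter was matched for Snap25, Syt4, Syt5, Syt7, Syt13, Vamp2, Insm1, Vgf and Rims2.
Ptprn2 site: ggcgctgtccGGTGCTGAAgctcggccgg
Scg2 site: ggagctgtccGGTGCTGAAacggcccgag
Unc13a site: ccgcgcccccGGTGCTGAAgcgacatggc

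None of the 34 genes passed the test between strains or after MK801, while single genes varied up to 409-fold between libraries. With edgeR's quasi-likelihood test and Benjamini-Hochberg adjustment over all genes at 0.05, 0 of 34 genes were called in C3H against B6 controls, where 2.40% of all genes were called, and 0 of 34 after MK801, where 0.622% were called. At an unadjusted p under 0.05 there were 6 of 34 in the strain comparison (13.8% of all genes) and 1 of 34 after MK801 (12% of all genes). DESeq2 called 2 of 34 between strains (4.94% of all genes) and 0 after MK801 (3.99%). Both limma-voom (2.26% and 0.634% of all genes) and limma on the authors' normalized values (2.58% and 1.13%) called 0 of 34 in each comparison. The median log2 fold change of the 34 genes was -0.01 in C3H and 0.00 after MK801, against -0.03 over all genes in each, with 17 genes above 0 and 17 below in each comparison. Without B6 control replicate 1, edgeR again called 0 of 34 in each comparison, with 7 and 2 genes at an unadjusted p under 0.05. Both comparisons share the B6 controls.

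The spread inside a group was larger than the difference between groups for most of these genes. The pooled standard deviation of log2 CPM within groups had a median of 0.55 over the 34 genes, against 0.46 over all genes tested, and it was above that value in 22 of the 34. The groups accounted for a median of 14.3% of the variance, against 16.6% over all genes. This share is not adjusted for the number of groups, so it is positive even where groups differ only by chance. Only Uchl1 (62.6%) and Scg5 (51.9%) had over 50% of their variance between groups, a share that 9.47% of all genes exceeded. The log2 fold change was smaller than the within-group standard deviation for 27 genes in C3H and for 28 after MK801. Within B6 controls, the range of levels was at least as wide as the difference of means from C3H for 33 genes, Chga being the exception, and as that from MK801 for all 34. The shares of all genes meeting these criteria were not counted. The median absolute log2 fold change of the 34 genes was 0.36 in C3H and 0.23 after MK801. Over all genes tested it was 0.28 and 0.21, also below the median standard deviation, so a spread above the difference is not shown to be particular to the 34.

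**Figure D1:**
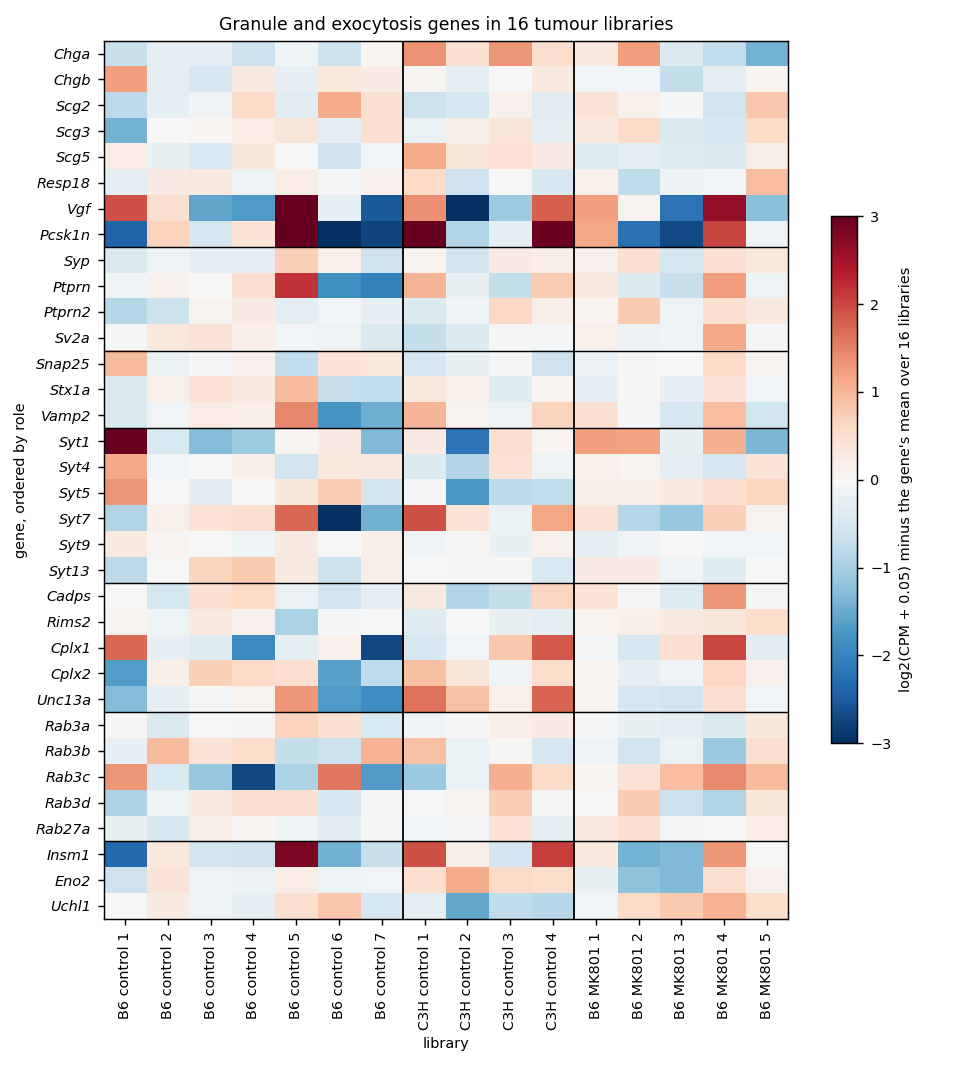
Log2(CPM + 0.05) of each gene (rows, by role) in each of the 16 libraries (columns), as the difference from the gene's mean over all libraries; black lines part the groups and the roles. Pcsk1n, Vgf and Insm1 change colour from library to library inside every group, whereas Syt9 and Rab27a stay near white throughout.

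Granule cargo came first in abundance. Chga encodes chromogranin A, an acidic protein that condenses in the granule core, and had the highest level per kilobase of transcript of the 34 genes in B6 controls, 2781 CPM per kb. It was followed by Resp18, an endocrine granule protein gene (2161), Scg2, encoding secretogranin II (1654), and Chgb, encoding chromogranin B (1294). Scg5, the gene of the 7B2 chaperone of proprotein convertase 2, and Scg3, whose product binds chromogranin A to granule membrane, followed at 500.6 and 446 CPM per kb. Vgf, a neuropeptide precursor gene, was last at 1.10 CPM per kb. The B6 control ranges of neighbours in the order of all 34 genes overlapped in 32 of 33 pairs. The exception was the step from Chgb (781 to 2555 CPM per kb) to Scg5 (342 to 673 CPM per kb), so the first 4 genes stood clear of the rest but not of each other.

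Chga had the smallest p between strains. Its level in B6 controls was 4152 CPM at the lowest, 5405 at the median and 7000 at the highest. In C3H controls it was 16922, 9110, 16688 and 9369 CPM in replicates 1 to 4, and after MK801 it was 8129, 15977, 4944, 4002 and 2485 CPM. All 4 C3H libraries lay above all 7 B6 controls, as did MK801 replicates 1 and 2, while MK801 replicate 5 was the lowest of the 16. The mean was 5237 ± 1084 CPM (SD, n = 7) in B6, 13022 ± 4370 (SD, n = 4) in C3H and 7107 ± 5371 (SD, n = 5) after MK801. The strain log2 fold change was 1.31 with a standard error of 0.379 (edgeR adjusted p = 0.0922), and DESeq2 gave an adjusted p of 0.0212 and an edgeR fit of the 2 groups alone 0.0183. Over 26 alternatives the adjusted p ran from 0.0183 to 0.358, both ends from edgeR. The highest came with the replicate number as a block, although equal numbers did not pair libraries. Without C3H replicate 1 the adjusted p was 0.238 (edgeR). The summed markers of alpha, delta, PP and epsilon cells were 258 to 2352 CPM in C3H, 102 to 357 in B6 controls and 50.3 to 519.6 after MK801. All 9 of these markers were in the table. Among them Ppy, the pancreatic polypeptide gene, was at 91.6 to 975 CPM in C3H against 2.17 to 56.3 in B6 controls, and Pyy, the peptide YY gene, at 84.3 to 1302 against 0.518 to 4.48. Other members of the list overlapped between the strains, such as Gcg, the glucagon gene, at 7.62 to 171 CPM in C3H and 13.3 to 344 in B6 controls, and Sst, the somatostatin gene, at 0.583 to 11.2 and 0.314 to 12.5. Their part in the Chga levels was not tested.

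Ranges of C3H and B6 controls were separate for 2 of the 34 genes, Chga and Eno2, both higher in C3H, against 1.5% of all genes separate in that direction and 3.87% in either. After MK801 the ranges were separate for 0 of 34, against 1.42% of all genes. Eno2 encodes neuron-specific enolase, a glycolytic enzyme of neurons and endocrine cells. It was 40.4, 56.9 and 81.3 CPM at the lowest, median and highest B6 control, and 87.9, 134, 92.0 and 88.8 CPM in C3H. The gap between the highest B6 control and the lowest C3H library was small, and MK801 libraries were at 53.2, 26.6, 24.6, 87.7 and 67.9 CPM, none above the C3H libraries. The strain log2 fold change was 0.75 with a standard error of 0.294 (edgeR adjusted p = 0.255).

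Scg5 was 413, 609 and 813 CPM at the lowest, median and highest B6 control. In C3H it was 1387, 808, 863 and 753.6 CPM, and after MK801 489, 522, 493, 478 and 721 CPM. C3H replicate 1 was the highest library, and 2 of the other C3H libraries were within the B6 range. The strain log2 fold change was 0.66 with a standard error of 0.209 (edgeR adjusted p = 0.137), 0.77 (edgeR adjusted p = 0.0358) with acinar content as a covariate and 0.42 (edgeR adjusted p = 0.388) without C3H replicate 1. Without the 3 libraries of steepest base composition trend, C3H replicate 1 among them, it was 0.43 (edgeR adjusted p = 0.393). Chgb was 2139, 3546 and 7002 CPM at the lowest, median and highest B6 control, 3129, 2421, 2962 and 3642 CPM in C3H and 2812, 2796, 1806, 2470 and 3090 CPM after MK801. The 7002 CPM belonged to B6 control replicate 1, and the other libraries did not separate by group. The log2 fold changes were -0.22 in C3H and -0.45 after MK801 (edgeR adjusted p = 0.771 and 0.567), and 0.03 and -0.20 without that library (edgeR adjusted p = 0.974 and 0.810). Scg2, Scg3 and Resp18 had adjusted p-values of at least 0.539 in both comparisons (edgeR).

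Pcsk1n encodes proSAAS, an inhibitor of proprotein convertase 1, and its spread was the widest of the 34 genes. B6 controls alone ran from 3.25 through a median of 36.9 to 932 CPM, a 287-fold range. C3H libraries were at 1332, 28.9, 43.5 and 411 CPM, and MK801 libraries at 119, 11.3, 8.21, 218 and 49.3 CPM. Every group held libraries under 50 CPM and libraries over 100 CPM, so the groups overlapped almost entirely. Its log2 fold changes were 1.47 ± 1.35 (SE) in C3H and -1.01 ± 1.33 (SE) after MK801 (edgeR adjusted p = 0.685 and 0.889). In the GENCODE annotation of GRCm38, the Pcsk1n exons overlap those of Eras on the other strand. Since the strandedness of the counting is not given, reads in the shared stretch may not be told apart. The same holds for Unc13a and Colgalt1, and for Rab3a and Mpv17l2. Whether the annotation used for counting holds these overlaps is not known. Antisense RNAs overlap Syp, Syt4, Rab3b, Resp18, Ptprn and Uchl1 with the same limit. Vgf ran from 0.114 through 0.740 to 15.6 CPM in B6 controls. It was 2.38, 0.0673, 0.397 and 3.23 CPM in C3H and 2.17, 0.972, 0.155, 5.83 and 0.344 CPM after MK801, and no group stood clear of another (edgeR adjusted p = 0.773 and 0.923).

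Among the granule membrane genes, the receptor phosphatase pair differed in steadiness. Ptprn (IA-2) ran from 39.6 to 724 CPM within B6 controls, whereas Ptprn2 (IA-2 beta, phogrin) ran from 506 to 1079. Ptprn2 had the smallest p of the 34 genes after MK801. Its B6 control levels were 506, 768.5 and 1079 CPM at the lowest, median and highest, its MK801 levels 978, 1571, 823, 1248 and 1125 CPM and its C3H levels 672, 835, 1396 and 1046 CPM. All 5 MK801 libraries were above the B6 median, and 2 of them were within the B6 range. The log2 fold change after MK801 was 0.54 with a standard error of 0.224 (edgeR unadjusted p = 0.0284, adjusted p = 0.331). Syp, encoding synaptophysin, was at 171, 221 and 426 CPM at the lowest, median and highest B6 control, at 280, 176, 308 and 299 CPM in C3H and at 287, 364, 182, 357 and 327 CPM after MK801. Its groups overlapped throughout (edgeR adjusted p = 0.916 and 0.758). Sv2a, a vesicle glycoprotein gene, was at 58.7 to 213 CPM over all libraries.

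The SNARE genes showed no separation by group. Snap25, the plasma membrane SNARE gene, was 116, 213 and 372 CPM at the lowest, median and highest B6 control. In C3H it was 140, 167, 190 and 125 CPM and after MK801 173, 199, 192, 294 and 206 CPM (edgeR adjusted p = 0.379 and 0.970). The C3H and MK801 libraries all lay inside the B6 range. Stx1a, the gene of the syntaxin partner of SNAP-25, ran from 11.5 to 36.7 CPM and Vamp2, the gene of the granule SNARE synaptobrevin 2, from 26.7 to 248.8 CPM over all libraries; B6 controls held both ends of each range.

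The synaptotagmin genes included both the steadiest gene and a very unsteady one. Syt9 was 49.8, 57.3 and 67.3 CPM at the lowest, median and highest B6 control, 50.5, 55.7, 46.9 and 60.1 CPM in C3H and 45.4, 50.4, 54.7, 51.8 and 51.3 CPM after MK801. Its within-group standard deviation of log2 CPM was 0.14, the smallest of the 34. After MK801 the log2 fold change was -0.21 with a standard error of 0.106 (edgeR adjusted p = 0.468). Syt1 was 3.02, 5.51 and 77.3 CPM at the lowest, median and highest B6 control, 9.04, 1.59, 10.8 and 7.95 CPM in C3H and 18.1, 17.6, 6.54, 16.0 and 2.91 CPM after MK801. B6 control replicate 1 alone exceeded 18.1 CPM, and the remaining libraries overlapped. With that library Syt1 had log2 fold changes of -1.09 in C3H and -0.36 after MK801 (edgeR adjusted p = 0.652 and 0.951); without it the values turned to 0.45 and 1.18 (edgeR adjusted p = 0.829 and 0.408).

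Syt5 was 13.9, 20.3 and 51.4 CPM at the lowest, median and highest B6 control. It was 19.9, 6.13, 11.9 and 12.3 CPM in C3H and 23.0, 23.5, 24.6, 28.3 and 31.9 CPM after MK801. The C3H libraries other than replicate 1 lay below all B6 controls, and the MK801 libraries were the least spread of the 3 groups. The strain log2 fold change was -1.05 with a standard error of 0.355 (edgeR adjusted p = 0.167), and -0.80 (edgeR adjusted p = 0.257) without B6 control replicate 1. Syt4 (93.6 to 378 CPM), Syt7 (11.96 to 359 CPM) and Syt13 (417 to 1234 CPM) had edgeR adjusted p-values of at least 0.558 in both comparisons.

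**Figure D2:**
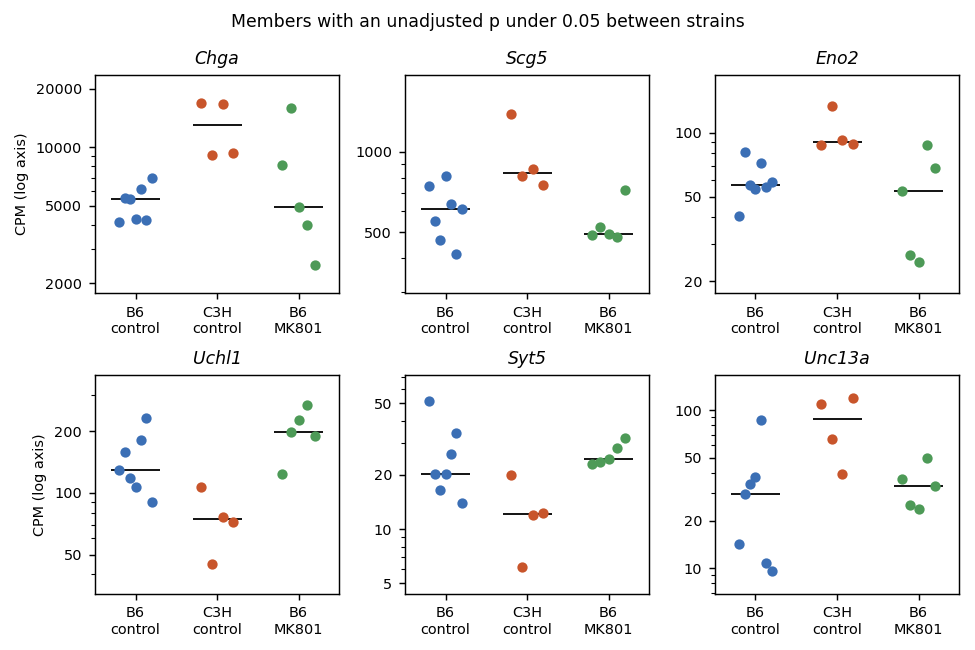
CPM on log axes of the 6 genes with an unadjusted edgeR p under 0.05 between strains; each point is a library and each line a group median. Chga and Eno2 in C3H lie above every B6 control. Uchl1 and Syt5 in C3H lie below every MK801 library, and Scg5 and Eno2 in C3H lie above every MK801 library. For Eno2 the gap is narrow, 87.9 against 87.7 CPM. C3H was not tested against MK801, and the share of all genes separate between these groups was not counted.

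Among priming genes, Unc13a encodes Munc13-1, which opens syntaxin for SNARE assembly. It was 9.65, 29.4 and 87.0 CPM at the lowest, median and highest B6 control, 110, 65.5, 39.4 and 119 CPM in C3H and 36.8, 25.1, 23.8, 50.01 and 33.2 CPM after MK801. B6 control replicate 5 was above 2 of the C3H libraries, and the other 6 B6 controls were below all 4. The strain log2 fold change was 1.39 with a standard error of 0.497 (edgeR adjusted p = 0.201), and without B6 control replicate 5 it was 1.88 (edgeR adjusted p = 0.0223). With any other B6 control or C3H library left out, the edgeR adjusted p was 0.205 to 0.449. The highest was that without C3H replicate 4, where the log2 fold change was 1.17. Rims2, a scaffold gene of release sites, was 37.4, 73.0 and 88.4 CPM at the lowest, median and highest B6 control, 56.0, 71.6, 62.0 and 59.9 CPM in C3H and 78.2, 83.6, 87.2, 91.4 and 104 CPM after MK801. All MK801 libraries exceeded the B6 median and 2 exceeded the B6 maximum, with a log2 fold change of 0.34 and a standard error of 0.164 (edgeR adjusted p = 0.433). Without the 3 libraries of steepest base composition trend, B6 control replicate 5 among them, it was 0.21 (edgeR adjusted p = 0.542). Cadps, a priming factor gene for dense-core granules, ran from 50.3 to 228 CPM, Cplx2 from 154 to 927 CPM and Cplx1 from 0.389 to 11.7 CPM; complexins clamp partly assembled SNAREs.

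The Rab genes recruit effectors that tether granules. Rab27a was 177, 227 and 283 CPM at the lowest, median and highest B6 control, 235, 235, 332 and 202 CPM in C3H and 302, 349, 239, 245 and 286 CPM after MK801. All 5 MK801 libraries exceeded the B6 median and 3 exceeded the B6 maximum, with a log2 fold change of 0.32 and a standard error of 0.152 (edgeR adjusted p = 0.417). The Rab3 genes differed in spread. Rab3a stayed within 60.9 to 133 CPM and Rab3d within 51.5 to 168 CPM, whereas Rab3c ran from 6.20 to 124 CPM and Rab3b from 18.1 to 80.1 CPM. None had an edgeR adjusted p under 0.647 in either comparison.

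Insm1, a zinc-finger repressor gene of endocrine progenitors and tumours, was 8.61, 28.5 and 308 CPM at the lowest, median and highest B6 control. In C3H it was 165, 49.5, 29.4 and 185 CPM and after MK801 53.6, 16.4, 17.5, 108 and 43.9 CPM. B6 controls held both the lowest and the highest library (edgeR adjusted p = 0.773 and 0.921). Uchl1 encodes a neuronal ubiquitin hydrolase also known as PGP9.5. It was 90.2, 130 and 233 CPM at the lowest, median and highest B6 control, 107, 45.1, 76.6 and 72.2 CPM in C3H and 124, 197, 227, 269 and 189 CPM after MK801. All 4 C3H libraries lay below all 5 MK801 libraries, a difference that was not tested. These 2 groups were also separate for Syt5 and Rims2, lower in C3H, and for Scg5 and Eno2, higher in C3H. The share of all genes separate between them was not counted. For Uchl1, C3H replicate 1 overlapped the B6 controls. The strain log2 fold change was -0.95 with a standard error of 0.282 (edgeR adjusted p = 0.104; DESeq2 adjusted p = 0.0389), and that after MK801 was 0.47 with a standard error of 0.252 (edgeR adjusted p = 0.513).

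**Figure D3:**
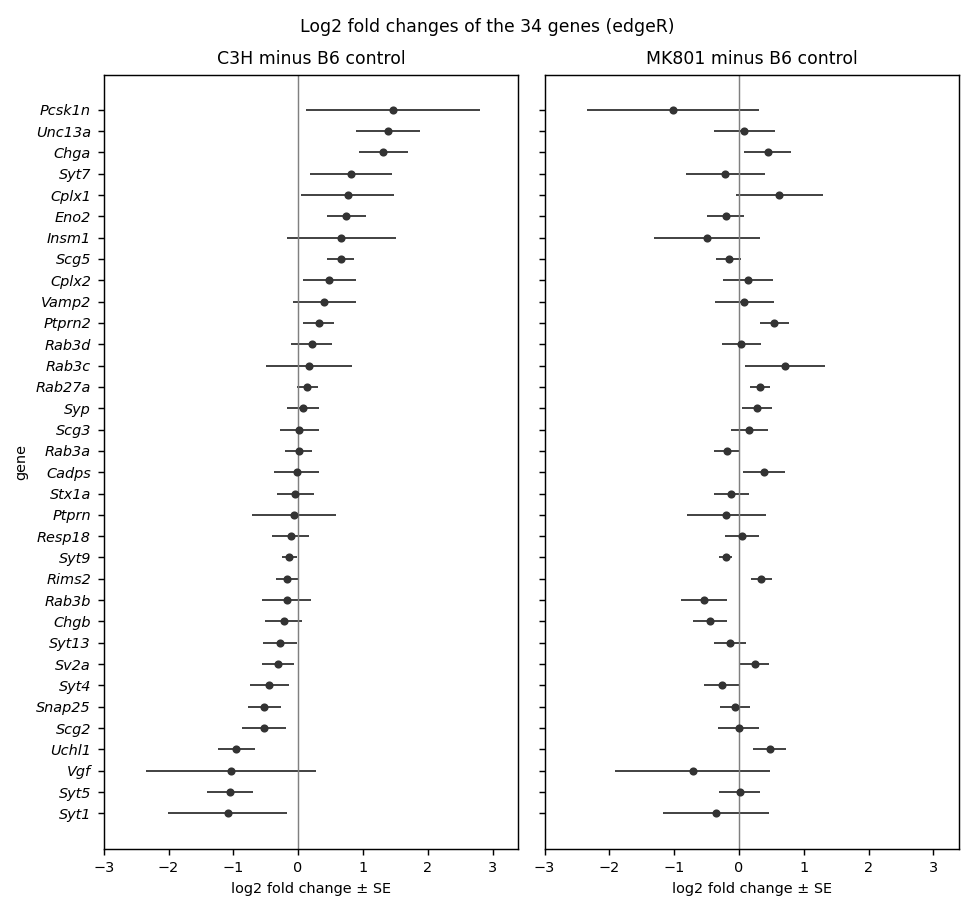
Log2 fold change and its standard error (bars) from the edgeR fit for each of the 34 genes, C3H against B6 controls on the left and MK801 against B6 controls on the right, in the order of the strain values. Pcsk1n, Vgf and Syt1 have the widest bars, and 17 genes lie on each side of 0 in each panel.

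In some of these genes much of the spread inside groups went with the base composition of what each library held. The transcript GC trend of a library is taken over all genes, as the Spearman correlation of a gene's log2 deviation in that library with the GC content of its transcript; it ran from -0.456 in B6 control replicate 7 to 0.588 in B6 control replicate 5. When this trend was regressed out within groups, the within-group standard deviation was lower by over 30% for 8 genes, a limit chosen after the values were seen. These were Syt7, Stx1a, Vamp2, Insm1, Pcsk1n, Ptprn, Cplx2 and Unc13a, lower by 32.3% (Cplx2) to 64.6% (Pcsk1n); the next gene, Snap25, was lower by 22.7%. Pcsk1n went from 2.52 to 0.89, Insm1 from 1.42 to 0.62 and Unc13a from 0.89 to 0.32 on the log2 scale. The median over all 34 genes went from 0.55 to 0.48, and that over all genes tested from 0.46 to 0.38. The share of all genes tested with a fall of over 30% was not counted, so the 8 genes are not set apart from genes at large.

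As a description over the 16 libraries, the 561 pairs of the 34 genes had a median Pearson r of 0.069 between log2 deviations from the group means, from -0.854 to 0.965. The median was 0.878 over the 28 pairs among the 8 genes, which is largely fixed by their choice on a shared trend and supports nothing further. The transcripts of the 8 genes were 53.2% to 62.0% GC (median 56.2%), and those of the other 26 were 38.7% to 64.1% (median 50.1%). GC content alone did not mark the 8 genes, since 8 of the other 26 lay in the same GC range, Chga at 58.4% among them. With the GC trend as a covariate, Unc13a was the single gene of the 34 called between strains, at 1.13 on the log2 scale (edgeR adjusted p = 0.0039), beside 2.8% of all genes called; after MK801, 0 of 34 were called (2.38% of all genes), with 3 at an unadjusted p under 0.05. What sets the GC trend of a library was not tested.

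**Figure D4:**
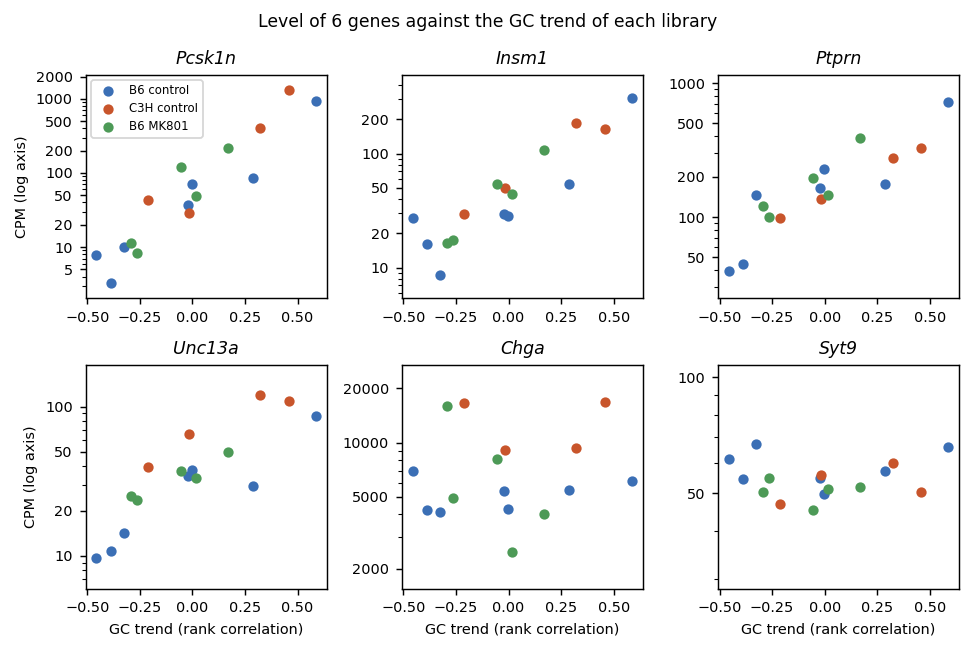
CPM (log axes) of 6 genes against the transcript GC trend of each of the 16 libraries, coloured by group. Pcsk1n, Insm1, Ptprn and Unc13a are high in the libraries with a high trend and low in those with a low trend, while Chga and Syt9 show no such order.

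**Figure D5:**
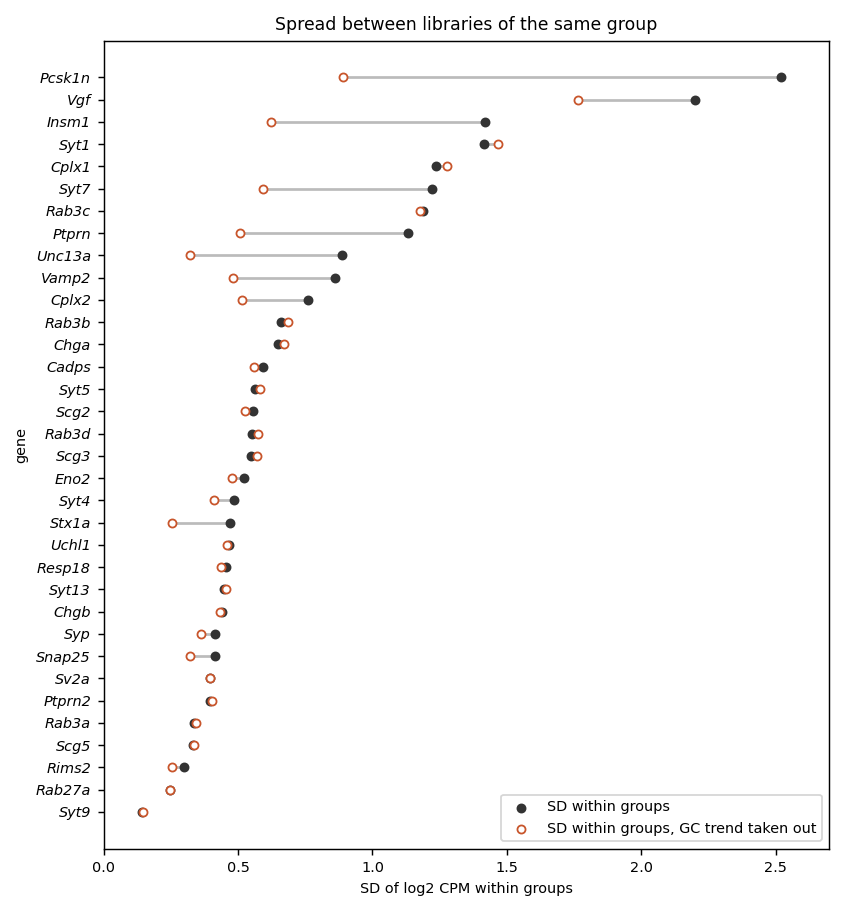
Within-group standard deviation of log2 CPM for each of the 34 genes as measured (filled) and with the GC trend regressed out (open), joined by lines. The longest lines are those of Pcsk1n (2.52 to 0.89) and Insm1 (1.42 to 0.62), and Vgf, Syt1, Cplx1 and Rab3c stay above 1 either way.

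Single libraries also carried much of the spread. B6 control replicate 1 was the highest of the 16 libraries for Chgb, Snap25, Syt1, Syt4, Syt5 and Syt9 and the lowest for Scg2, Scg3, Syt13, Rab3d, Insm1, Ptprn2 and Cplx2. B6 control replicate 5, which had the highest GC trend, was the highest for Syp, Stx1a, Vamp2, Rab3a, Insm1, Vgf and Ptprn and the lowest for Snap25 and Rims2. Among other libraries, C3H replicate 1 was the highest for 5 genes. B6 control replicate 7 and C3H replicate 2 were each the lowest for 6. How often each library was the highest or lowest over all genes was not counted. Over the 16 libraries, 9 genes spanned at least 10-fold and 6 genes (Syp, Syt9, Syt13, Rab3a, Rab27a and Rims2) less than 3-fold. The 10-fold span was present within B6 controls alone for 8 of the 9, Unc13a being the exception.

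Genes outside the 34 were compared with the mean of the 34 genes' deviations from group means, each divided by its standard deviation. The 8 genes above varied together (median r 0.878) and the other 26 little (median r 0.017), so the 8 weigh more in that mean. Over 16 libraries, among 10474 genes whose log2 CPM averaged 3 or more, the most alike were Aatk (r = 0.895), Ttyh3, Rtn4rl1, P4htm, Erlec1, Zbtb7a, Tmcc2 and Wnk4 (r = 0.873). Their transcripts were 54.4% to 61.4% GC except that of Erlec1, at 40.4%. At the other end were AK129341 (r = -0.904), Fbxo30, Gtpbp10 and Tmem194b, and the 3 of these with a known value had transcripts of 38.2% to 41.9% GC.

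The rest of the secretory pathway was read from 8 lists holding 157 genes, of which 145 were tested. In C3H tumours 3 of 145 were higher and 0 lower (2.07%, beside 2.4% of all genes), and 18 of 145 had an unadjusted p under 0.05, as did 13.8% of all genes. After MK801, edgeR called 0 of 145 (0.622% of all genes) and DESeq2 called 1 (3.99% of all genes). An unadjusted p under 0.05 after MK801 was found for 13 of 145, beside 12% of all genes. In the list of granule cargo and prohormone processing, 1 of 15 tested genes rose in C3H. That gene, Pyy, encodes peptide YY and also stands in the list of alpha, delta, PP and epsilon cell markers. It was 0.518, 2.0 and 4.48 CPM at the lowest, median and highest B6 control and 1302, 84.5, 317 and 84.3 CPM in C3H (log2 fold change 7.51, SE 1.02, edgeR adjusted p = 0.000476). In that list Cartpt stood at -8.93 in C3H and -6.59 after MK801 as log2 fold changes (edgeR adjusted p = 0.154 and 0.234), resting on the 5576 CPM of B6 control replicate 1. Pam, the gene of the peptide-amidating enzyme, had a value of -0.58 after MK801 (edgeR adjusted p = 0.364).

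In the docking and priming list, 1 of 29 tested genes rose in C3H. Erc2, a scaffold gene of release sites, was 18.5, 30.5 and 53.1 CPM at the lowest, median and highest B6 control and 72.4, 73.7, 103 and 62.1 CPM in C3H (log2 fold change 1.25, SE 0.296, edgeR adjusted p = 0.0349). All C3H libraries were above all B6 controls, but the call was lost in 14 of 26 alternatives, among them any C3H library left out, while the log2 fold change stayed between 1.14 and 1.44. Rab37, of the same list, had a strain value of -0.70 (edgeR adjusted p = 0.141), and Rims3 and Sytl2 had values of 1.54 and -0.85 after MK801 (edgeR adjusted p = 0.163 and 0.202). Among the other SNARE and fusion genes, 1 of 19 rose in C3H. Stxbp5l, encoding tomosyn-2, which competes for syntaxin, was 7.02, 30.2 and 76.5 CPM at the lowest, median and highest B6 control and 106, 145, 95.5 and 106 CPM in C3H (log2 fold change 1.83, SE 0.466, edgeR adjusted p = 0.0497). Its ranges did not overlap either, and its call was lost in 16 of 26 alternatives, with log2 fold changes between 1.56 and 2.22. Vamp4 had log2 fold changes of 0.56 in C3H and -0.40 after MK801 (edgeR adjusted p = 0.105 and 0.295), and Stxbp6 stood at -1.55 after MK801 (edgeR adjusted p = 0.377).

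No tested gene passed the edgeR test in either comparison in the other 5 lists: granule biogenesis (12 genes), other synaptotagmins and complexins (12), vesicle membrane proteins (18), calcium channels and excitability (19) and neuroendocrine regulators (21). At an unadjusted p under 0.05 they held 0, 2, 2, 2 and 2 genes in the strain comparison and 0, 1, 0, 2 and 1 after MK801, beside 13.8% and 12% of all genes. The smallest strain p-values were those of Tmem163 and Rab2a, Syt11 and Syt2, Sv2c and Syngr2, Cacnb4 and Scn3a, and Isl1 and Elavl4, list by list. Cacnb4, a calcium channel subunit gene, came nearest, at -0.99 on the log2 scale (edgeR adjusted p = 0.068; DESeq2 adjusted p = 0.00349). After MK801 the smallest were those of Ica1 and Arfip2, Syt17 and Sytl3, Syn2 and Syngr2, Cacna1d and Cacnb4, and Rcor1 and Isl1. The log2 fold change was 0.61 for Cacna1d, the gene of a calcium channel of beta cells, and 0.81 for Rcor1, the gene of a REST corepressor (edgeR adjusted p = 0.278 and 0.338).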

How the data were processed

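RNA was isolated with miRNeasy and polyA libraries prepared with Illumina TruSeq, per the labels' protocols. Per the submitters' processing notes, RSEM 1.2.12, Bowtie 1.0.1 and the build mm9 were used, in roles not given there; no source used here states annotation, filters or strandedness. Deposited by the authors were estimated counts, not normalized, and a normalized signal, which the values show to be those counts divided by 1 factor per library. No column was without a sample.

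Rounded estimated counts went through edgeR 4.0.16 in R 4.3.3 (filterByExpr with the groups, TMM, glmQLFit and glmQLFTest with all 3 groups in the model), each group against B6 controls, with Benjamini-Hochberg adjustment over 16084 genes at 0.05. Standard errors are the log2 fold change divided by the root of F; the prior count of log2 CPM was 2. Each library had at least 38561334 counts; a gene with few counts also carries counting error. GC content and transcript length came from the longest GENCODE transcript on GRCm38, a different build, which gave values for 98.6% of genes tested and all 34 members. Levels per kilobase and their order rest on that length, which need not be that of the transcript expressed. Alternatives were DESeq2 1.42.0, limma 3.58.1 (voom, and on log2 of the normalized values plus 1), other factors, filters and thresholds, 2 groups only, covariates for acinar content and GC trend, a replicate block and leaving out libraries; the GC trend with the block, and the trend regressed out of the spread, were added after seeing the data. The 34 genes, the lists and the rule for naming genes were chosen with earlier results of these data known. The rule took the smallest p-values per comparison, the widest and narrowest spread, 6 field markers, and the called genes and 2 smallest p-values of each pathway list. The steps were tested on simulated data, with genes drawn independently of each other and without a GC trend. Which sizes of change would be missed in the libraries themselves was not measured. Replicates differed by more than sampling noise (lowest chi-square per degree of freedom 116.6). Equal replicate numbers did not pair libraries, as the check in the closing section shows. Marker lists of other cell types were summed per library.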

Additional observations from a re-analysis of the deposited data

Results flagged for a closer look

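In 102 combinations of a gene and a group, 9 single libraries stood far from the rest of their group (Dixon's criterion at 95%, on log2 CPM), in 8 genes; chance alone gives about 1 in 20. On CPM itself, a scale added after seeing the data, the same criterion picked out 18 libraries, 5 of them the same, and the added ones included Chgb in B6 control replicate 1 (7002 CPM against 2139 to 3675 in the others) and Pcsk1n and Insm1 in B6 control replicate 5 (932 CPM against 3.25 to 86.7, and 308 CPM against 8.61 to 54.2). Syt1 was 77.3 CPM in B6 control replicate 1 against 3.02 to 9.05 in the other B6 controls, and 1.59 CPM in C3H replicate 2 against 7.95 to 10.8. Scg3 was 390 CPM in B6 control replicate 1 against 874 to 1482. Rims2 was 37.4 CPM in B6 control replicate 5 against 64.5 to 88.4. In C3H, Syp was 176 CPM in replicate 2 against 280 to 308, Eno2 134 CPM in replicate 2 against 87.9 to 92.0, and Syt13 521 CPM in replicate 4 against 706 to 734. After MK801, Scg5 was 721 CPM in replicate 5 against 478 to 522, and Sv2a 213 CPM in replicate 4 against 86.3 to 108.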

How the results depend on the processing

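No alternative reversed the log2 fold changes of Chga, Uchl1, Scg5, Syt5, Unc13a, Eno2, Erc2, Pyy and Stxbp5l between strains, or of Ptprn2, Rab27a, Rims2 and Syt9 after MK801. Without B6 control replicate 1, those of Syt1 in both comparisons and of Chgb between strains changed sign, to 0.45, 1.18 and 0.03. The sign also changed for Scg3 and Rab3a between strains, and for Cplx2, Rab3d, Resp18, Snap25 and Unc13a after MK801. Cplx1 went from 0.76 to 1.44 between strains and from 0.62 to 1.30 after MK801 (edgeR adjusted p = 0.358 and 0.448 without that library). Of the 34 genes, edgeR called 1 between strains at a threshold of 0.10 (Chga), in a fit of 2 groups (Chga), with the acinar covariate (Scg5) and with the GC trend covariate (Unc13a), DESeq2 called 2, and 0 to 1 were called with a library left out; after MK801 it was 0 in all 27 alternatives. Over all genes, the strain count of 386 was 153 at 0.01, 586 at 0.10, 794 by DESeq2, 231 with 2 groups, 221 without the 3 libraries of steepest GC trend and 207 to 473 with a library left out. The MK801 count of 100 was 8 at 0.01, 305 at 0.10, 64 without a low-count filter, 181 by limma on the authors' normalized values, 641 by DESeq2, 10 with 2 groups, 383 with the GC covariate, 10 without the 3 libraries of steepest trend and 4 to 202 with a library left out. Of the other pathway genes, 3 between strains became 1 at 0.01, with the acinar covariate and without the 3 steepest libraries, 6 by DESeq2 and 1 to 4 with a library left out; after MK801, DESeq2 and the GC covariate each called 1, and leaving out a library gave 0 to 1. The median share of variance between groups was 12.2% to 23.5% with a library left out. With the GC trend regressed out within groups it was 23.3%. That step leaves group means unchanged and can only lower the sum of squares within groups, so a rise was fixed in advance. The causes were not tested.

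With the replicate number as a block, 162 genes were called between strains, 1 of them in the pathway lists, and 1 after MK801; with block and GC covariate it was 198, 1 and 225. Same-numbered libraries had correlations of deviations from -0.312 to 0.114, and 0 of 4 C3H and 0 of 5 MK801 libraries correlated best with their own number, so the numbers are not taken as pairs. Depth limits Vgf and Cplx1, the genes of lowest level per kilobase.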
